A study of Magallana angulata with 8 samples.

Results

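The gill of oysters kept in Cu-enriched seawater was compared with the gill of oysters that had met no added Cu. The species is *C. angulata*, the Fujian oyster, and the series holds 8 digital gene expression libraries, of which the 4 gill libraries make up this comparison. G1-L and G1-H were pools of unexposed oysters with low and high Cu, dissected straight from a farm at 9 months of age. G2-L and G2-H were pools of oysters that had been acclimated for 7 days and then held for 30 days in tanks with 30 µg Cu/L, added as CuCl2. The Cu class was assigned after dissection of 60 oysters per treatment, and each library was made from 6 of them, so that a library is 1 pool and carries no replicate of its condition. The study's results describe the gill and mantle pools of a treatment and Cu class as taken from the same oysters. The exposed oysters also lived in filtered seawater at a controlled temperature on *Chlorella* powder, and no tank-kept group without Cu was analysed here, so Cu and the change from farm to tank cannot be told apart. The word exposed covers both. The GEO labels give tissue, code and Cu class, and the treatment behind the codes is that of the study's methods.

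Exposed and unexposed libraries were paired by Cu class (G2-L with G1-L, the low-Cu pair, and G2-H with G1-H, the high-Cu pair). Where a pair of values stands for a treatment, the low-Cu library comes first. The deposited values were RPKM (reads scaled to gene length and to a read total of the library). A difference is given as exposed minus unexposed on the log2(RPKM + 0.1) scale, which understates the change of low genes. Of the 25647 genes in the table, 19532 had a mean of at least 1 RPKM over the 4 gill libraries and were tested. Whole reads could be recovered from the RPKM values, and the libraries held between 2049651 and 2589523 reads in gill, with a median of 21 to 27 reads among the genes that had any. Gene names are the best protein matches in the authors' annotation, and the IDs carry no coordinates here.

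The gill of a bivalve is at once its respiratory surface, its food-collecting organ and the tissue in the most direct contact with dissolved metal. Copper enters cells through high affinity uptake proteins, is handed on by chaperones, is exported or loaded into secreted proteins by P-type ATPases, and is buffered by metallothioneins and glutathione. Excess copper is known to drive oxidative damage, and oysters store large amounts of it in their tissues. Extracellular superoxide dismutase, which in other animals removes superoxide outside cells with Cu and Zn at its active site, is known as an abundant protein of oyster haemolymph.

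Reads of genes typical of mantle were present in the exposed gill libraries. Among genes with at least 50 RPKM in all 4 mantle libraries, 53 had 2 reads or fewer in both unexposed gill libraries, and these were taken as a mantle-restricted set after the data had been seen. In the unexposed gill, the set had 14 and 12 reads, with a median of 0% of the level in the mantle library of the same treatment and Cu class. In the exposed gill, the set had 4731 reads in G2-L, with a median of 5.57% of M2-L and a highest share of 33.3%. In G2-H it had 625 reads, with a median of 0.503% of M2-H and a highest share of 1.37%. The low values in unexposed gill are set by the rule, and only the difference between G2-L and G2-H is free of it. After the data had been seen, sets were therefore also chosen on 1 gill library at a time. The 57 genes chosen on G1-L alone had 30 reads in G1-H, with 4 genes over 2 reads, against 5026 reads and 53 such genes in G2-L and 690 reads and 33 such genes in G2-H. The 57 chosen on G1-H alone had 76 reads in G1-L (4 genes over 2 reads), 5233 in G2-L (52 genes) and 636 in G2-H (32 genes). When the choice was made on G2-H, 28 genes were left, with 2115 reads in G2-L (24 genes over 2 reads), 97 in G1-L (4 genes) and 17 in G1-H (3 genes). Whichever of these 3 libraries the set was chosen on, G2-L had the most reads of it. Only 6 genes passed when the choice was made on G2-L. They had 68 reads in G1-L (2 genes over 2 reads), 87 in G1-H (1 gene) and 40 in G2-H (2 genes).

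**Figure D1:**
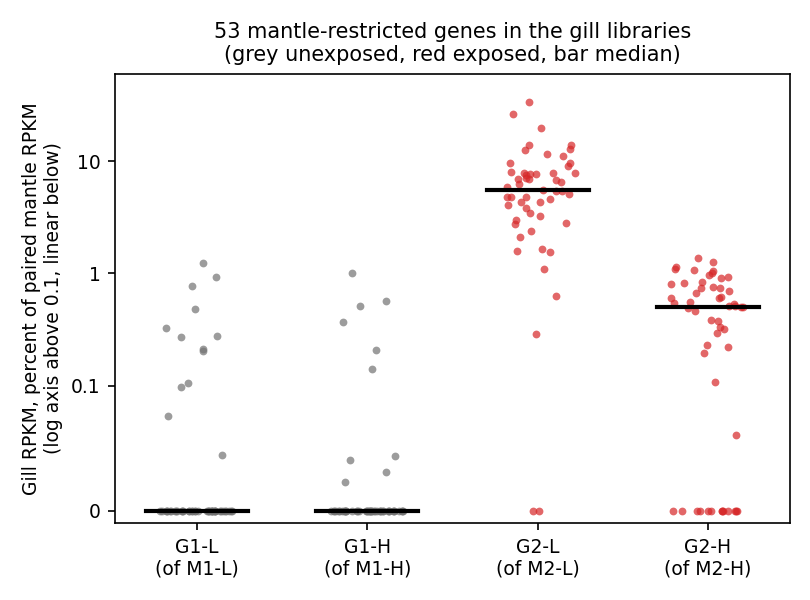
RPKM of the 53 mantle-restricted genes in each gill library (x axis) as a percent of the RPKM in the mantle library of the same treatment and Cu class (y axis, logarithmic above 0.1 and linear below), with 1 point a gene and a bar at the median. The medians are 0 in both unexposed libraries and 5.57% and 0.503% in the exposed ones, low-Cu first.

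The genes of this set include Mesenchyme-specific cell surface glycoprotein (OYG_10005749_10005185), with 0 reads in unexposed gill, 131 and 47 in exposed gill and 2913 to 7292 in the mantle libraries. Tyrosinases, enzymes that cross-link shell matrix in molluscs, went with G2-L as well. The 25 genes with that name had 22 and 33 reads in unexposed gill, 445 and 43 in exposed gill and 1416 to 8724 in mantle. Other genes listed as markers of mantle and shell formation did not. The 17 perlucins had 722 and 656 reads in the unexposed and 572 and 649 in the exposed gill, and the 14 chitin synthases had more reads in every gill library (4502 to 5620) than in any mantle library (1772 to 2278). The whole marker list, 44 of whose 83 genes were tested, summed to 907 and 900.2 RPKM in the unexposed and 841 and 938 RPKM in the exposed gill. What part the mantle-restricted reads have in the results was not tested. The counts that follow are therefore also given after the median, or the highest, share of the matching mantle library had been subtracted from each exposed gill library, an alternative added after the data had been seen. The subtraction can only lower exposed levels, and with the highest share every gene of the set comes to 0 or below by construction.

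The label gill was checked against genes of the cilia and axoneme, the motor of the ciliated gill filaments. The 75 listed genes summed to 5200 to 7549 RPKM in the 4 gill libraries and to 1674 to 2296 RPKM in the 4 mantle libraries, with no overlap between the tissues. Radial spoke head 1-like (OYG_10006989_10033084), part of the radial spoke of the axoneme, was the most abundant of them, at 1099 and 1034 RPKM in unexposed against 513 and 731 RPKM in exposed gill. Contractile muscle genes, which mark the adductor and pallial muscle, summed to 3315 RPKM in G2-L and to 2278 to 2695 RPKM in the other gill libraries, against 5399 to 9521 RPKM in mantle. Genes listed for haemocytes, most of them integrins, summed to 881 to 1077 RPKM over the gill libraries, in overlapping ranges. Of the 30 tested, 12 were higher and 13 lower in both pairs at any size, against 31.9% and 30.9% of all genes. Integrin alpha-6 (OYG_10013155_10017925) was past both 2-fold and the Fisher limit described below, and higher. Whether the list is specific to haemocytes was not tested. Genes listed for the digestive gland summed to 845 RPKM in G1-L, to 233 to 316 RPKM in the other gill libraries and to 419 to 963 RPKM in mantle. Most of the G1-L sum was 1 lipase gene (OYG_10023932_10026753), with 679 RPKM there and 71.3 to 164 RPKM in the other gill libraries. Genes listed for the gonad summed to 1555 and 1123 RPKM in unexposed and 942 and 1238 RPKM in exposed gill, and to 722 to 869 RPKM in mantle. Of these sums, 1 gene named Zonadhesin (OYG_10001592_10011205) held 726 and 299.6 RPKM in unexposed and 84.9 and 117 RPKM in exposed gill. The median differences of the 30 genes tested were 0.20 and 0.19, so the list as a whole was not lower. Many of its genes are named for spermatogenesis-associated proteins, and whether the list is specific to gonad was not tested. Spermatogenesis-associated protein 17 (OYG_10009345_10006227) had 125 to 166 RPKM in gill and 42.4 to 52.6 RPKM in mantle libraries. Others overlapped between the tissues, such as Piwi-like protein 1 (OYG_10008757_10039703), with 22.5 to 28.4 and 21.7 to 26.3 RPKM. In tissue pools, fewer cells of a type and less RNA per cell cannot be told apart.

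The first question was which genes differed the same way in both pairs. At least 2-fold in both pairs, 739 genes (3.78% of those tested) were higher and 936 (4.79%) lower in the exposed gill, while 702 moved at least 2-fold in opposite directions in the pairs. The differences of the low-Cu and high-Cu pairs, which share no library, correlated weakly across genes (Pearson's r = 0.2 over 19532 genes, which are not independent replicates). When Fisher's exact test (two-sided, FDR of at most 0.001 in each pair) was added to the 2-fold rule, 206 genes (1.05%) were higher in both pairs, 164 (0.84%) lower, and 27 opposite. This rule is the one meant by "called" below, and the calls in each list are to be read against these shares of all genes. It compares libraries, and like the fold intervals below (exact binomial, 95%) it covers counting error only, and without replicates it says nothing of the spread between oysters. Of the called genes, 57 of the higher and 63 of the lower had no informative name. With only 1 pair, the same rule took 1984 genes in the low-Cu pair (1172 higher, 812 lower) and 971 in the high-Cu pair (543 higher, 428 lower).

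The 2 pairs were also taken as replicates of the exposure in limma, with the Cu class as a block and 1 residual degree of freedom besides the prior. No gene (0%) passed an adjusted p of 0.05, and the smallest was 0.0883, while 2910 genes (14.9%) had an unadjusted p under 0.05. The voom fit on recovered reads called 380 genes, 204 higher and 176 lower, and 256 of the 370 genes of the Fisher rule were among those it called. A limma fit to all 8 libraries called 16 genes, of which 12 belonged to the mantle-restricted set. The set was chosen on low reads in unexposed gill, the baseline of this fit, which favours its genes. An exact permutation test of 2 against 2 libraries cannot go below p = 0.333. A gene described as called therefore rests on both pairs being past the Fisher rule, and limma and voom values are given for genes that lead a group. Subtraction of the median mantle share left 187 of the 206 higher genes past the rule, and subtraction of the highest share left 149. The 18 of the 206 that belong to the mantle-restricted set were bound to drop out under the highest share.

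**Figure D2:**
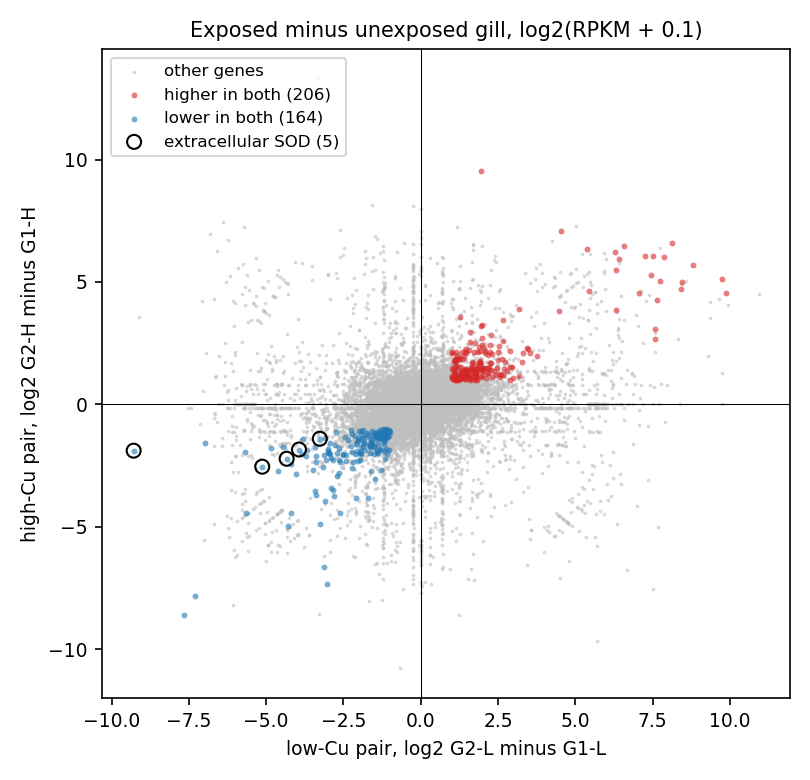
Difference of each of the 19532 tested genes in the low-Cu pair (x axis, G2-L minus G1-L) and the high-Cu pair (y axis, G2-H minus G1-H), both on the log2(RPKM + 0.1) scale. Red points are the 206 genes called higher and blue points the 164 called lower, the remaining genes are grey, and the 5 extracellular superoxide dismutase genes, circled, all lie at the lower left.

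All 5 genes annotated as extracellular superoxide dismutase were lower in both exposed libraries, with medians of -4.33 and -1.89 on the log2 scale in the low-Cu and high-Cu pair, against -0.03 and 0.05 over all genes tested. All 5 were called lower, against 0.84% of all genes. Their reads made up 1.03% and 1.19% of the unexposed libraries, and 0.0619% and 0.303% of the exposed ones.

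The most abundant gene, OYG_10026148_10030582, had 11740.5 and 11568 RPKM in unexposed against 767 and 3227 RPKM in exposed gill. By the smaller of its pair differences, this gene had the largest loss in RPKM of all genes tested. Both exposed libraries lay below both unexposed ones, 15.3-fold (95% interval 14.4 to 16.3) lower in the low-Cu pair and 3.58-fold (95% interval 3.47 to 3.70) in the high-Cu pair. The second, OYG_10004092_10030581, had 2834 and 4901 RPKM in unexposed against 140.3 and 1052 RPKM in exposed gill. Next came OYG_10018833_10030584, which had 2257 and 2950.3 RPKM in unexposed against 64.6 and 506 RPKM in exposed gill, and was the most reduced of those read in every library, 34.96-fold and 5.83-fold lower. In each of these the low-Cu pair had the larger fold difference, and the counting intervals of the 2 pairs did not overlap.

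OYG_10018834_10030585 had 419.9 and 518 RPKM in unexposed against 43.7 and 196 RPKM in exposed gill. The least abundant, OYG_10000265_10030585, had 0 reads in G2-L and 62 in its unexposed partner, at least 24.8-fold lower against a floor of 3 reads per library, and went from 87 to 26 reads in the high-Cu pair. For the 5 genes, limma gave adjusted p between 0.17 and 0.235 and voom between 0.00603 and 0.115. The copies may be alike in sequence, and the authors counted unambiguous reads only, so the division of reads between them is less certain than their sum.

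The same genes were lower in exposed mantle. There 6.58% to 30.5% of the unexposed level was left in the low-Cu pair and 13.5% to 85.9% in the high-Cu pair, against 0% to 10.4% and 17.2% to 37.8% in gill. The gill minus mantle difference of the exposure effect lay between -4.57 and -0.43 on the log2 scale, below 0 for all 5, and none was separated from 0 by the limma interaction (adjusted p of 0.731 to 0.906). In every treatment and Cu class the summed level was higher in mantle than in gill, at 9185 RPKM in M2-L and 1015 in G2-L.

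**Figure D3:**
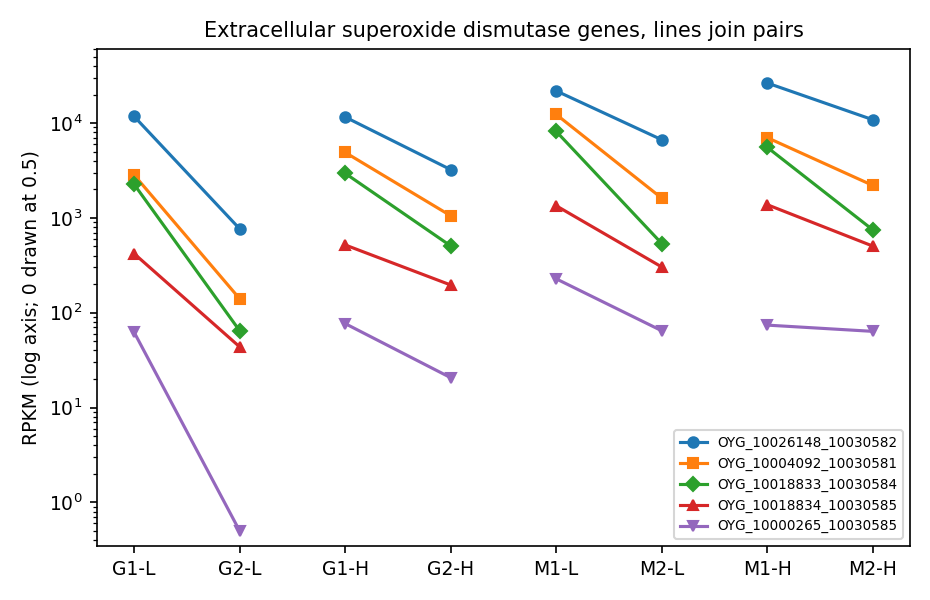
RPKM (logarithmic y axis, 0 drawn at 0.5) of the 5 extracellular superoxide dismutase genes in the 8 libraries (x axis), where lines join the unexposed and exposed library of a Cu class. Every line falls from left to right, in gill and in mantle, and OYG_10000265_10030585 reaches 0 in G2-L.

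Enzymes of the cell interior against reactive oxygen were not called. Among 6 other superoxide dismutase and catalase genes, none was past the 2-fold rule in both pairs and the medians were -0.08 and 0.55. Superoxide dismutase [Mn] (OYG_10017307_10033407), the mitochondrial enzyme, had 58.3 and 87.3 RPKM in unexposed against 114 and 125 RPKM in exposed gill, so both exposed libraries lay above both unexposed ones, by 1.96-fold (95% interval 1.51 to 2.58) and 1.43-fold (95% interval 1.15 to 1.78). Limma gave it an adjusted p of 0.28, and it was the only member with an unadjusted p under 0.05. It was named after its values had been seen, and had a low-Cu log2 difference of 0.06 after the highest mantle share was subtracted. Catalase OYG_10003354_10005709, which splits hydrogen peroxide, had 165 and 175 RPKM in unexposed against 109 and 185 RPKM in exposed gill. The 2 further catalases, OYG_10016257_10005709 and OYG_10003355_10011238, went from 69.4 to 62.98 RPKM in the low-Cu pair and from 75.1 to 122 RPKM in the high-Cu pair, and from 38.8 to 41.3 RPKM in the low-Cu pair and from 40.5 to 64.4 RPKM in the high-Cu pair. Of 75 glutathione and thioredoxin genes, none was called. Alternative oxidase (OYG_10020743_10034198), a mitochondrial enzyme that passes electrons straight from ubiquinol to oxygen, was called higher, with 13.3 and 12.7 RPKM in unexposed against 135 and 55.3 RPKM in exposed gill. Its level was 10.1-fold (95% interval 6.71 to 15.8) higher in the low-Cu pair and 4.37-fold (95% interval 2.87 to 6.88) in the other, and limma gave a log2 difference of 2.72 ± 0.37 (SE, n = 2 pairs, adjusted p = 0.149), and voom an adjusted p of 0.00921.

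Copper handling genes differed by gene. Of 7 tested, 2 were called higher, against 1.05% of all genes, and none lower, with medians of 0.15 and 0.43. High affinity copper uptake protein 1 (OYG_10018882_10014878), the plasma membrane importer, had 49.3 and 51.6 RPKM in unexposed against 107 and 123 RPKM in exposed gill, so both exposed libraries lay above both unexposed ones, by 2.17-fold (95% interval 1.61 to 2.95) and 2.39-fold (95% interval 1.82 to 3.16). Limma gave it an adjusted p of 0.182. A second gene of that name, OYG_10026371_10014878, had 5.71 and 7.53 RPKM in unexposed against 6.34 and 6.02 RPKM in exposed gill, in which the groups overlapped. Its low-Cu log2 difference went from 0.15 to -0.16 after subtraction of the median mantle share.

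Copper-transporting ATPase 1, which pumps Cu into the secretory pathway or out of the cell, is annotated for a pair of genes. OYG_10013657_10031298 had 10.01 and 7.69 RPKM in unexposed against 35.7 and 15.5 RPKM in exposed gill, 3.57-fold (95% interval 2.85 to 4.51) and 2.02-fold (95% interval 1.55 to 2.65) higher. OYG_10001203_10031298 had 7.71 and 7.38 RPKM in unexposed against 31.4 and 9.96 RPKM in exposed gill, and passed the rule in the low-Cu pair only. Both ATPase genes were also higher in exposed mantle, the first at 5.15 and 8.25 RPKM in unexposed and 28.3 and 12.7 RPKM in exposed mantle. The uptake protein called in gill had 81.9 and 87.6 RPKM in unexposed and 46.8 and 138 RPKM in exposed mantle, lower in the low-Cu and higher in the high-Cu mantle pair. Of these called genes, the first ATPase and the uptake protein each came under the 2-fold rule in 1 pair when the highest mantle share was subtracted (log2 differences of 0.99 and 0.89).

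The remaining copper genes had few reads. The homolog of the copper homeostasis protein cutC (OYG_10008572_10032608) had 12 and 12 reads in unexposed and 5 and 4 in exposed gill, a difference at least 2-fold in both pairs that the Fisher rule did not call. SCO1-like protein (OYG_10004862_10027718), which inserts Cu into cytochrome c oxidase, went from 27.2 to 13.5 RPKM in the low-Cu pair and from 19.4 to 20.4 RPKM in the high-Cu pair. The copper chaperone for superoxide dismutase (OYG_10024375_10041186) had 5 to 13 reads in each gill library. For the 7 genes, limma gave adjusted p of 0.182 to 0.946.

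Metallothioneins, small cysteine-rich proteins that bind Cu, Zn and Cd, did not move together. The 5 genes had medians of 2.18 and 0.40, and none was called in both pairs. OYG_10021194_10012460 had 64.8 and 55.6 RPKM in unexposed against 293 and 38.1 RPKM in exposed gill, and OYG_10021196_10007768 had 15.1 and 10.6 RPKM in unexposed against 150.5 and 3.58 RPKM in exposed gill, so that both were higher in G2-L than in the other 3 gill libraries. Both had still more in M2-L, at 616 and 179 RPKM, and subtraction of the highest mantle share took their low-Cu log2 differences from 2.18 to 0.45 and from 3.31 to 2.59. OYG_10012042_10029507 had 59.3 and 37.7 RPKM in unexposed against 30.4 and 257 RPKM in exposed gill and was highest in G2-H. Only OYG_10000066_10007768 was at least 2-fold higher in both pairs, with 4 and 28 reads in the low-Cu pair against 0 and 2 in the other, too few in the latter for a fold. OYG_10003519_10029507 had 2 and 15 reads in unexposed and 0 and 22 in exposed gill. In limma the 5 genes had adjusted p of 0.188 to 0.718.

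Zinc and iron genes held 2 calls. Of 30 zinc and iron genes, 2 were called higher, against 1.05% of all genes, and none lower (medians 0.20 and 0.27). Zinc transporter ZIP1 (OYG_10012799_10035739), which brings Zn into the cytosol, had 37.1 and 19.2 RPKM in unexposed against 213 and 67.98 RPKM in exposed gill, 5.74-fold (95% interval 4.48 to 7.44) and 3.54-fold (95% interval 2.52 to 5.07) higher. Zinc transporter ZIP12 (OYG_10003866_10023342), of the same family, went from 10.9 to 76.6 RPKM in the low-Cu pair and from 12.9 to 33.3 RPKM in the high-Cu pair. Zinc transporter 1 (OYG_10019513_10015620), an exporter, had 56.4 and 69.5 RPKM in unexposed against 187 and 47.1 RPKM in exposed gill and was highest in G2-L. Ferritin (OYG_10027591_10009092), the iron store and the most abundant of the list, had 8651 and 5636 RPKM in unexposed against 6803 and 4803 RPKM in exposed gill and was not called. L-ascorbate oxidase (OYG_10004443_10009369), named for a multicopper oxidase, went from 4.78 to 22.1 RPKM in the low-Cu pair and from 9.93 to 40.04 RPKM in the high-Cu pair and was called higher.

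Cytosolic ribosomal proteins, the structural proteins of the ribosome, were lower together. Of 88 genes tested, 84 were lower in both exposed libraries, against 30.9% of all genes tested, with medians of -0.93 and -0.81. Only 8 reached 2-fold in both pairs (4.79% of all genes were lower by that rule) and 4 were called, with a median of 52.6% of the unexposed level left in the low-Cu pair and 56.9% in the high-Cu pair. Together their RPKM summed to 214151 and 178711 in unexposed and 115060 and 101939 in exposed gill, where they took 6.48% and 5.77% of the reads. In limma, 80 of the 88 had an unadjusted p under 0.05, against 14.9% of all genes tested, and the adjusted p lay between 0.0916 and 0.958. In voom, 37 passed an adjusted p of 0.05, against 380 of all 19532 genes tested.

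60S ribosomal protein L23 (OYG_10024065_10022339), of the large subunit, had 8743 and 7466 RPKM in unexposed against 4350.1 and 3807 RPKM in exposed gill. 60S ribosomal protein L36 (OYG_10021069_10004969), the most abundant of the list, had 8993 and 7883 RPKM in unexposed against 5115 and 4561 RPKM in exposed gill, and L24 (OYG_10004554) 6776 and 6169 RPKM in unexposed against 3759 and 3214 RPKM in exposed gill. In all of these, both exposed libraries lay below both unexposed ones. The 4 that were called were 40S ribosomal proteins S24, S14 and S27a and 60S ribosomal protein L29. S24 (OYG_10001493_10002374) had the largest difference of the 4, with 411 and 254 RPKM in unexposed against 66.98 and 49.1 RPKM in exposed gill, 6.13-fold (95% interval 4.90 to 7.76) and 5.16-fold (95% interval 3.99 to 6.77) lower, and limma gave a log2 difference of -2.49 ± 0.22 (SE, n = 2 pairs, adjusted p = 0.0916), and voom an adjusted p of 0.00399. It was lower in both exposed mantle libraries too, at 432 and 475 RPKM in unexposed and 8.59 and 149 RPKM in exposed mantle. The genes outside the common range had few reads or opposite pairs, such as 40S ribosomal protein S3a (OYG_10001663_10037434), with 62 and 0 reads in unexposed and 44 and 10 in exposed gill.

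**Figure D4:**
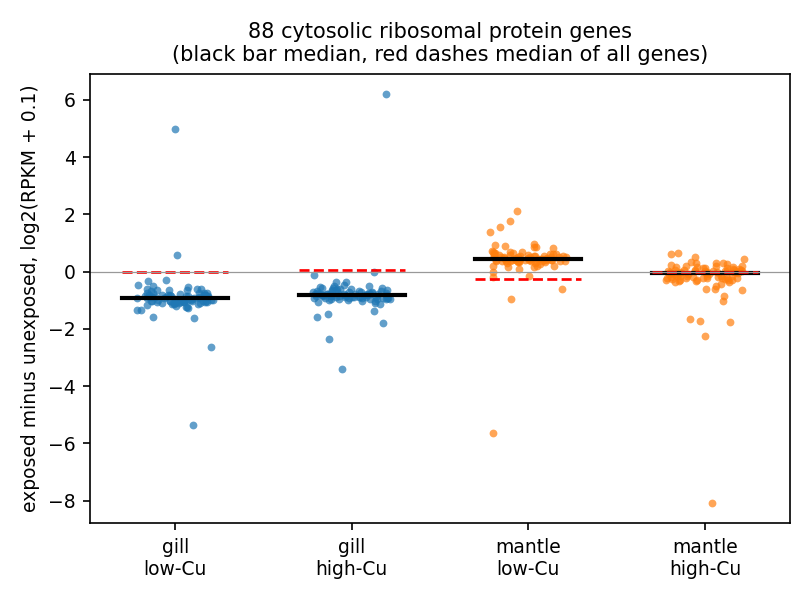
Exposed minus unexposed difference, log2(RPKM + 0.1), of the 88 cytosolic ribosomal protein genes (y axis) in the low-Cu and high-Cu pairs of gill and of mantle (x axis), with 1 point a gene, a black bar at their median and red dashes at the median of all genes tested. The gill medians are -0.93 and -0.81 and the mantle medians 0.44 and -0.06.

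Exposed mantle did not share this loss. The mantle medians of the same 88 genes were 0.44 (low-Cu pair) and -0.06 (high-Cu pair), against -0.26 and 0 over all genes tested. In both mantle pairs 33 of the 88 were higher and 4 lower, against 20.3% and 32.9% of all genes tested. The gill minus mantle difference was below 0 for 85 of the 88, with a median of -1.05. The limma interaction had an unadjusted p under 0.05 for 61 of them, and none passed after adjustment over all genes (adjusted p of 0.731 to 0.962). Across all genes tested, the interaction called none (0%), with 1195 genes at an unadjusted p under 0.05.

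Other parts of the translation and energy machinery were less uniform. Elongation factor 1-alpha (OYG_10012474_10035047), which brings aminoacyl-tRNA to the ribosome, had 12862 and 10412 RPKM in unexposed against 9491 and 7449.6 RPKM in exposed gill and was among the 6 largest losses in RPKM without reaching 2-fold. Mitochondrial ribosomal proteins had medians of -0.48 and -0.06, with none of 51 called. Respiratory chain genes had medians of -0.34 and 0.007, and none of 52 was called. Cytochrome b (OYG_10001766), the mitochondrially encoded core of complex III, had 11449 and 8302 RPKM in unexposed against 4552 and 4322 RPKM in exposed gill. Its limma adjusted p was 0.182, and exposed mantle was lower too, at 16019 and 12141 RPKM in unexposed and 10964 and 7690.1 RPKM in exposed mantle. Ubiquitin (OYG_10026681_10011417) was among the 6 largest gains in RPKM, from 6423 to 7261 RPKM in the low-Cu pair and from 4592 to 5025 RPKM in the high-Cu pair, and was not called.

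Genes of protein breakdown were more often higher than lower. Of 46 proteasome genes, 33 were higher and 4 lower in both pairs, against 31.9% and 30.9% of all genes, with medians of 0.24 and 0.64. The 2 called were 26S regulatory subunits, OYG_10012066_10004434 for non-ATPase subunit 1, which went from 17.2 to 59.02 RPKM in the low-Cu pair and from 20.1 to 50.7 RPKM in the high-Cu pair, and OYG_10027701_10015799 for non-ATPase subunit 3, which went from 9.34 to 24.2 RPKM in the low-Cu pair and from 5.48 to 19.99 RPKM in the high-Cu pair. Exposed mantle had medians of 0.65 and 0.51 for the same genes. Of 47 genes in the lysosomal list, 28 were higher in both pairs (medians 0.24 and 0.42). The 1 called was the protease Cathepsin L (OYG_10016721_10018067), from 8.33 to 35.1 RPKM in the low-Cu pair and from 6.89 to 34.9 RPKM in the high-Cu pair. Arylsulfatase B, Beta-hexosaminidase and Sialin, called higher and described below, lie outside this list. A more abundant Cathepsin L, OYG_10010587_10032311, had 220.3 and 267 RPKM in unexposed against 676 and 449.998 RPKM in exposed gill and was not called.

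Among the chaperones, 1 of 122 genes of the heat shock 70 kDa family was called higher and 1 lower, both named heat shock 70 kDa protein 12A (medians -0.23 and 0.19). OYG_10003806_10029693 went from 6.07 to 21.3 RPKM in the low-Cu pair and from 9.98 to 24.4 RPKM in the high-Cu pair, and OYG_10001267_10013602 went from 12.4 to 0 RPKM in the low-Cu pair and from 21.9 to 7.27 RPKM in the high-Cu pair. None of 10 other listed heat shock proteins and none of 30 listed genes of protein folding in the endoplasmic reticulum was called. The medians were -0.004 and 0.26 for the former and -0.003 and 0.34 for the latter. Heat shock protein STI, outside these lists and described below, was called higher.

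The genes with the largest relative gain were mostly genes of the mantle-restricted set. That set was chosen on few reads in unexposed gill, the baseline of the gain, so the choice itself favours large relative gains. Of the 12 highest with an informative name, 8 belonged to the set, and Teneurin-2 and IF-2 below missed it by having under 50 RPKM in at least 1 mantle library. After subtraction of the highest mantle share, these 10 fell to 0 or below in both pairs. For the 8 this was fixed in advance, because that share is the largest within the set. All 10 had 2 reads or fewer in each unexposed gill library, as the rule required of the 8, and higher levels in every mantle library than in exposed gill. They were Mesenchyme-specific cell surface glycoprotein, a pair of genes named Tyrosine-protein phosphatase Lar (OYG_10016965_10032329 and OYG_10016964_10032328), a pair named Wnt inhibitory factor 1 (OYG_10017544_10032779 and OYG_10017543_10032778), Protein fmtA (OYG_10005424_10032998), Electroneutral sodium bicarbonate exchanger 1 (OYG_10027254_10036261), Chitotriosidase-1 (OYG_10026605_10010934), Teneurin-2 (OYG_10017545_10032780) and a gene named for translation initiation factor IF-2 (OYG_10004704_10006671). Their gain in G2-L was 2.40% to 12.4% of the level in M2-L, and their gain in G2-H was 0.508% to 1.22% of the level in M2-H.

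The sodium bicarbonate exchanger is of a kind that moves bicarbonate for acid-base balance. It had 2 and 1 reads in unexposed and 254 and 85 in exposed gill, with 403 and 438 RPKM in unexposed and 678 and 1218 RPKM in exposed mantle. The 8-library fit called it (limma, adjusted p = 0.0118) and the 4-library fit did not (adjusted p = 0.138). Chitotriosidase-1, a chitinase, had 0 reads in both unexposed gill libraries and 179 and 17 in the exposed ones, at least 49.7-fold and 5.10-fold higher against the floor of 3 reads per library. Among all called genes, 13.1% of those higher and 0.61% of those lower had at least 4 times their unexposed gill level in unexposed mantle, against 3.48% of all genes tested. That rule reads the unexposed gill, which is also the baseline of the comparison, so a low baseline favours a gain.

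Among the gains outside this set were several proteins of the extracellular matrix and cell surface, most of them chosen, after their values had been seen, as called genes that stayed at least 2-fold higher when the highest mantle share was subtracted. Fibrillin-3 (OYG_10006796_10010941), named for a glycoprotein of elastic microfibrils, had 44.3 and 36.8 RPKM in unexposed against 279 and 404 RPKM in exposed gill. The low-Cu level was 6.29-fold (95% interval 5.80 to 6.82) higher, the high-Cu pair had a log2 difference of 3.46, and limma gave a log2 difference of 3.05 ± 0.28 (SE, n = 2 pairs, adjusted p = 0.0916), and voom an adjusted p of 0.00105. Its mantle level was 1.87 and 1.74 RPKM in unexposed and 8.996 and 73.9 RPKM in exposed mantle, below that of the gill library of the same treatment and class in each case. Collagen alpha-3(VI) chain (OYG_10025212_10032818), a chain of the beaded-filament collagen, had the largest gain in RPKM by the smaller of its pair differences, with 1316 and 865 RPKM in unexposed against 2665 and 2417 RPKM in exposed gill. Hemicentin-1 (OYG_10007658_10018016), named for an immunoglobulin-repeat matrix protein, had 319 and 206 RPKM in unexposed against 778 and 769.8 RPKM in exposed gill, and both genes were higher in exposed mantle as well, at 46.6 and 61.004 RPKM in unexposed and 246 and 544 RPKM in exposed mantle for the collagen.

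Further matrix and adhesion genes were called higher. A second Hemicentin-1 (OYG_10008940_10008129) went from 0.737 to 3.25 RPKM in the low-Cu pair and from 0.834 to 4.92 RPKM in the high-Cu pair. The von Willebrand factor D and EGF domain-containing protein OYG_10005910_10041660 had 15.5 and 27.01 RPKM in unexposed against 169 and 134 RPKM in exposed gill. Fibropellin-1, named for a sea urchin protein of the embryonic apical matrix, was called for OYG_10027449_10005108 (from 4.02 to 17.4 RPKM in the low-Cu pair and from 4.65 to 20.5 RPKM in the high-Cu pair) and for a partial model, OYG_10013558_10029814. CUB and sushi domain-containing protein 1 (OYG_10011253_10020681) went from 8.38 to 40.3 RPKM in the low-Cu pair and from 17.9 to 96.7 RPKM in the high-Cu pair. In the list of 62 tested cadherins, the calcium-dependent adhesion proteins, Neural-cadherin (OYG_10014372_10029854, from 43.3 to 103 RPKM in the low-Cu pair and from 57.98 to 120.3 RPKM in the high-Cu pair) and Cadherin-87A (OYG_10025806_10011684, from 23.2 to 50.3 RPKM in the low-Cu pair and from 24.4 to 86.3 RPKM in the high-Cu pair) were called higher and none lower, with medians of 0.26 and 0.28. The collagen alpha-3(VI) chain and Cadherin-87A came just short of 2-fold in the low-Cu pair after that subtraction (log2 differences of 0.97 and 0.94).

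The collagens as a list went both ways. Of 88 genes in the collagen list, 54 were tested, 2 were called higher, 1 lower and 1 opposite, with medians of 0.25 and 0.001. Besides the alpha-3(VI) chain, an alpha-5(VI) chain (OYG_10004818_10019896) was called higher, from 9.07 to 24.5 RPKM in the low-Cu pair and from 13.3 to 27.2 RPKM in the high-Cu pair. The most abundant collagen, another alpha-5(VI) chain (OYG_10012008_10011384), had 4637 and 4832 RPKM in unexposed against 1312 and 3009.9 RPKM in exposed gill, lower in both pairs but short of 2-fold in the high-Cu pair. Collagen alpha-2(VIII) chain (OYG_10015044_10037154) had 49 and 31 reads in the unexposed and 6 and 1 in the exposed gill, and was called lower. Short-chain collagen C4, outside this list and described below, was called lower as well. Of 39 matrix proteases and inhibitors, a disintegrin and metalloproteinase (OYG_10004989_10024172) was called higher, from 52.9 to 182 RPKM in the low-Cu pair and from 102 to 214 RPKM in the high-Cu pair. Metalloproteinase inhibitor 3 (OYG_10027616_10016498) was called lower, from 59.1 to 16.7 RPKM in the low-Cu pair and from 41.3 to 13.8 RPKM in the high-Cu pair.

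Further called genes that stayed 2-fold higher after that subtraction, again chosen after their values had been seen, are mostly named for proteins known from neurons. Such names were not counted among the genes called lower or among all genes tested, so no excess of them was shown. FMRFamide neuropeptide (OYG_10015177_10033274), a precursor of peptides that act on molluscan heart and muscle, had 2.45 and 6.48 RPKM in unexposed against 28.1 and 31.6 RPKM in exposed gill, and 4 to 65 reads. Neogenin (OYG_10022229_10038898), a receptor in axon guidance, had 6 and 8 reads in the unexposed and 50 and 58 in the exposed libraries. Contactin (OYG_10003022_10016524), an adhesion protein of neurons and glia, went from 9.52 to 55.5 RPKM in the low-Cu pair and from 12.6 to 65.3 RPKM in the high-Cu pair. Glutamate receptor, ionotropic kainate 1 (OYG_10000779_10023721) went from 8.36 to 40.04 RPKM in the low-Cu pair and from 18.8 to 60.2 RPKM in the high-Cu pair, and a pair of genes named for DBH-like monooxygenases, relatives of the Cu enzyme dopamine beta-hydroxylase, went from 23.3 to 85.8 RPKM in the low-Cu pair and from 22.3 to 113 RPKM in the high-Cu pair for OYG_10006998_10003496 and from 15.4 to 102 RPKM in the low-Cu pair and from 9.30 to 31.2 RPKM in the high-Cu pair for OYG_10026674_10040375.

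Of 43 neurotransmitter and amino acid transporters, 2 were called higher, against 1.05% of all genes, and none lower, with medians of 0.60 and 0.15. Sodium-dependent proline transporter (OYG_10000052_10033075), which takes up proline with Na, had 20.98 and 27.02 RPKM in unexposed against 76.8 and 119 RPKM in exposed gill, 3.66-fold (95% interval 2.41 to 5.73) and 4.39-fold (95% interval 3.12 to 6.30) higher. Sodium- and chloride-dependent GABA transporter ine (OYG_10006472_10014430) had 10.5 and 46.6 RPKM in unexposed against 66.1 and 109 RPKM in exposed gill, where the exposed and unexposed libraries did not overlap. A gene annotated as GABA transporter, putative (OYG_10026568_10018131), outside that list, had 69.98 and 39.2 RPKM in unexposed against 378 and 90.7 RPKM in exposed gill and was called higher as well. Excitatory amino acid transporter 1 (OYG_10017841_10008053), which clears glutamate, differed between the pairs, at 63.5 and 14.6 RPKM in unexposed against 650.3 and 16.4 RPKM in exposed gill, with 354 RPKM in M2-L. An FMRFamide receptor (OYG_10019164_10033105) had 19.4 and 20.1 RPKM in unexposed against 206 and 18.1 RPKM in exposed gill and 953 RPKM in M2-L, so that its gain in G2-L was 19.6% of the mantle level. Subtraction of the highest mantle share took its low-Cu log2 difference from 3.40 to -7.61, and that of the glutamate transporter from 3.35 to 3.07. Both were chosen after their values were seen. Of 72 nicotinic acetylcholine receptor genes none was called, with medians of -0.32 and 0.22.

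The other genes that stayed 2-fold higher after that subtraction included enzymes. Prostaglandin reductase 1 (OYG_10010805_10002503), which reduces lipid-derived enals and enones, went from 14.2 to 56.7 RPKM in the low-Cu pair and from 4.74 to 45.4 RPKM in the high-Cu pair. Arylsulfatase B (OYG_10027840_10007965), a lysosomal sulfatase, went from 3.09 to 13.4 RPKM in the low-Cu pair and from 5.43 to 25.2 RPKM in the high-Cu pair, and Beta-hexosaminidase (OYG_10023604_10017460), a lysosomal glycosidase, from 3.52 to 48.5 RPKM in the low-Cu pair and from 6.07 to 23.9 RPKM in the high-Cu pair. Sialin (OYG_10020505_10025145), the lysosomal exporter of sialic acid, had 5 to 44 reads and went from 2.75 to 11.2 RPKM in the low-Cu pair and from 1.34 to 9.42 RPKM in the high-Cu pair. Heat shock protein STI (OYG_10009891_10033839), named for a co-chaperone, went from 2.71 to 10.6 RPKM in the low-Cu pair and from 3.45 to 10.9 RPKM in the high-Cu pair.

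High mobility group protein DSP1 (OYG_10023724_10030630), a DNA-bending chromatin protein, was one of the more abundant genes called higher, with 353 and 270.5 RPKM in unexposed against 782 and 1202 RPKM in exposed gill, but its low-Cu difference was 0.46 after the highest mantle share was subtracted. A hypothetical protein, OYG_10024421_10012062, was among the 6 largest gains in RPKM, with 138 and 173 RPKM in unexposed against 661 and 1219.8 RPKM in exposed gill, and so was OYG_10000492_10001402, with 969.8 and 305 RPKM in unexposed against 2464 and 1356 RPKM in exposed gill. In both, the exposed libraries lay above the unexposed ones. For the second, mantle had 5.10 and 6.40 RPKM in unexposed and 281 and 232 RPKM in exposed mantle, and the gill minus mantle difference of the exposure effect was -3.71 on the log2 scale (limma interaction, unadjusted p = 0.00011, adjusted p = 0.36). Another, OYG_10014616_10006704, had 2592 and 1665 RPKM in unexposed against 3393 and 3859 RPKM in exposed gill and was not called.

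A pair of genes named cAMP-responsive element-binding protein-like 2, after a leucine zipper regulator of transcription, went opposite ways. OYG_10010182_10021325 had 107 and 73.8 RPKM in unexposed against 502 and 322 RPKM in exposed gill, 4.69-fold (95% interval 4.07 to 5.41) and 4.37-fold (95% interval 3.72 to 5.15) higher. The second, OYG_10014228_10013734, had 133 and 172 RPKM in unexposed against 19.2 and 12.7 RPKM in exposed gill, 6.93-fold (95% interval 5.17 to 9.47) and 13.5-fold (95% interval 9.63 to 19.4) lower. For the first, limma gave a log2 difference of 2.18 ± 0.21 (SE, n = 2 pairs, adjusted p = 0.0948), and voom an adjusted p of 0.00399, and for the second, limma gave a log2 difference of -3.27 ± 0.32 (SE, n = 2 pairs, adjusted p = 0.0948), and voom an adjusted p of 0.00269. In mantle, the first had 131 and 93.6 RPKM in unexposed and 153 and 337 RPKM in exposed mantle, and the second had 245 and 208 RPKM in unexposed and 34.9 and 29.03 RPKM in exposed mantle, so the loss of the second was shared by mantle and the 8-library fit called it (adjusted p = 0.0483).

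The losses with the largest relative size were genes that nearly or wholly disappeared from the exposed gill. Ankyrin repeat domain-containing protein 17 (OYG_10005015_10020712) had 25 and 54 reads in G1-L and G1-H, 0 in G2-L and G2-H, and 0 in every mantle library. Against the floor of 3 reads per library it was at least 10.01-fold lower in the low-Cu pair and at least 20-fold lower in the high-Cu pair. Protein SpAN (OYG_10002834_10033506), named for a sea urchin astacin metalloprotease, had 60 and 48 reads in the unexposed and 1 and 2 in the exposed gill, and was at 11.03 and 4.30 RPKM in unexposed and 0 and 0.235 RPKM in exposed mantle. Sodium-coupled monocarboxylate transporter 1 (OYG_10007497_10031201), which takes up lactate and short fatty acids, had 37 and 29 against 2 and 1 reads. Sushi repeat-containing protein SRPX2 (OYG_10004002_10019942) had 26 and 18 against 1 and 0 reads. With counts this low the size of the loss is poorly known, and only its direction is common to both pairs.

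Several losses were of abundant transcripts. Caprin-2 (OYG_10015043_10037152), whose vertebrate namesake carries a C1q domain, had 2139 and 496 RPKM in unexposed against 252 and 32.2 RPKM in exposed gill, 8.49-fold (95% interval 7.46 to 9.68) and 15.4-fold (95% interval 10.97 to 22.2) lower. G1-L had over 4 times the level of G1-H, and both lay above both exposed ones. Limma gave a log2 difference of -3.51 ± 0.27 (SE, n = 2 pairs, adjusted p = 0.0892), and voom an adjusted p of 0.00109, and the gill minus mantle difference was -2.48 (interaction adjusted p = 0.661). Short-chain collagen C4 (OYG_10026803_10031099), named for a sponge collagen, had 137 and 167 RPKM in unexposed against 18.3 and 15.7 RPKM in exposed gill, 7.49-fold (95% interval 5.07 to 11.4) and 10.7-fold (95% interval 7.16 to 16.5) lower. Natterin-1 (OYG_10000854_10005587), named for a fish venom protein, had 570.3 and 452 RPKM in unexposed against 43.6 and 104 RPKM in exposed gill. Zonadhesin (OYG_10001592_10011205) had 726 and 299.6 RPKM in unexposed against 84.9 and 117 RPKM in exposed gill, although the name is that of a sperm protein in mammals, and another gene of the name, OYG_10015787_10038299, was called higher, from 9.03 to 21.3 RPKM in the low-Cu pair and from 12.4 to 26.2 RPKM in the high-Cu pair.

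Regulators and signalling proteins were also reduced. T-box transcription factor TBX15 (OYG_10003515_10041878), of a family of developmental regulators, had 44.8 and 33.8 RPKM in unexposed against 7.11 and 4.73 RPKM in exposed gill. Receptor-type tyrosine-protein phosphatase U (OYG_10022049_10024877) had 56.4 and 16.3 RPKM in unexposed against 3.33 and 2.19 RPKM in exposed gill. Caveolin-1 (OYG_10002738_10002974), the coat protein of caveolae, went from 91.8 to 8.74 RPKM in the low-Cu pair and from 91.5 to 21.5 RPKM in the high-Cu pair. Proline-rich transmembrane protein 1 was called lower for OYG_10006627_10040045, with 23 and 18 against 3 and 0 reads, and for OYG_10006076_10025367, from 50.7 to 6.66 RPKM in the low-Cu pair and from 33.999 to 7.39 RPKM in the high-Cu pair.

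Enzymes called lower included a pair of spermine synthases, which make the polyamine spermine. OYG_10019141_10013194 had 9.03 and 26.8 RPKM in unexposed against 1.19 and 2.26 RPKM in exposed gill, and OYG_10019142_10012119 had 14.5 and 29.01 RPKM in unexposed against 1.93 and 5.96 RPKM in exposed gill. Flavin-containing monooxygenase FMO GS-OX3 (OYG_10027134_10010294) had 116 and 77.1 RPKM in unexposed against 6.27 and 14.4 RPKM in exposed gill, 18.4-fold (95% interval 11.99 to 29.8) and 5.37-fold (95% interval 3.98 to 7.36) lower. Pancreatic triacylglycerol lipase (OYG_10023932_10026753), a digestive gland marker in the lists, had 679 and 164 RPKM in unexposed against 145 and 71.3 RPKM in exposed gill and was the most abundant member of that list, which summed highest in G1-L. Acetyl-CoA carboxylase (OYG_10014352_10035842), the first committed step of fatty acid synthesis, went from 10.6 to 4.13 RPKM in the low-Cu pair and from 10.6 to 4.20 RPKM in the high-Cu pair, as the only call among 79 genes of lipid and glycogen metabolism.

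Ion and acid-base genes were called in both directions. Of 54 tested, 2 were called higher and 3 lower (medians 0.18 and 0.20). A pair of genes named Carbonic anhydrase 2, the enzyme that hydrates carbon dioxide, was called lower, OYG_10013772_10015902 from 58.9 to 7.26 RPKM in the low-Cu pair and from 37.96 to 10.01 RPKM in the high-Cu pair and OYG_10010889_10019955 from 41.1 to 16.3 RPKM in the low-Cu pair and from 27.6 to 7.75 RPKM in the high-Cu pair. The remaining one was Mitochondrial sodium/hydrogen exchanger NHA2 (OYG_10025881_10034672), from 12.6 to 2.81 RPKM in the low-Cu pair and from 14.3 to 5.78 RPKM in the high-Cu pair. Sodium/potassium-transporting ATPase subunit alpha (OYG_10005591_10013776), the pump that sets the Na gradient, was called higher, with 184 and 211 RPKM in unexposed against 438 and 448 RPKM in exposed gill. It was higher in mantle too, at 334 and 396 RPKM in unexposed and 359 and 1138 RPKM in exposed mantle, and came short of 2-fold in the low-Cu pair after the highest mantle share was subtracted (log2 difference of 0.79). The other gene called higher was the bicarbonate exchanger of the mantle-restricted set.

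Lists of recognition proteins of innate immunity held few calls. Of 146 scavenger and multiple EGF-like receptors, 5 were called lower (3.42%, against 0.84% of all genes) and none higher, with medians of -0.04 and -0.25. They were 3 genes named Deleted in malignant brain tumors 1 protein, whose mammalian namesake binds bacteria at mucosal surfaces, and 2 multiple epidermal growth factor-like domain genes. The most reduced of the first, OYG_10028387_10041830, had 38.1 and 28.6 RPKM in unexposed against 4.86 and 7.04 RPKM in exposed gill, and of the second, Multiple epidermal growth factor-like domains 11 (OYG_10013479_10011537), had 18.8 and 31.97 RPKM in unexposed against 4.35 and 7.81 RPKM in exposed gill. All 5 were also lower in both exposed mantle libraries.

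Among 98 lectins, which bind carbohydrates, 1 was called higher (1.02%) and 2 lower (2.04%), near the 1.05% and 0.84% of all genes (medians -0.07 and -0.08). L-rhamnose-binding lectin CSL3 (OYG_10023709_10020711), the most abundant, had 498 and 250.5 RPKM in unexposed against 136 and 74.9 RPKM in exposed gill, and Collectin-12 (OYG_10015627_10029596) had 253 and 132 RPKM in unexposed against 38.5 and 33.4 RPKM in exposed gill. C-type lectin domain family 4 member G (OYG_10024093_10003042) was higher, at 27.3 and 23.4 RPKM in unexposed against 177 and 64.4 RPKM in exposed gill. Of 59 genes of the C1q domain, 1 was called lower, Complement C1q-like protein 2 (OYG_10007882_10005153, from 97.6 to 23.1 RPKM in the low-Cu pair and from 28.6 to 1.91 RPKM in the high-Cu pair), and 3 were past the rule in opposite directions. The tripartite motif genes, ubiquitin ligases that are numerous in oysters, had 29 of 638 tested members at least 2-fold lower in both pairs (4.55%, near the 4.79% of all genes) and 3 higher (0.47%, against 3.78%). Of these, 2 were called, both lower, and the medians were -0.36 and -0.15. GTPase IMAP genes had 1 of 21 called lower, and Toll and cytokine signalling genes 0 of 139. Of 78 apoptosis genes, 1 was called, and it was lower.

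Further lists held few calls. Of 79 cytochrome P450 genes, monooxygenases of lipid and xenobiotic metabolism, Cytochrome P450 2G1 (OYG_10007149_10038502) was called higher, from 11.8 to 40.8 RPKM in the low-Cu pair and from 24.6 to 58.9 RPKM in the high-Cu pair, and 1 gene was opposite. Of 55 ATP-binding cassette transporters, Multidrug resistance-associated protein 1 (OYG_10008106_10020497), an efflux pump of conjugates, was called higher, from 11.2 to 23.7 RPKM in the low-Cu pair and from 14.1 to 30.2 RPKM in the high-Cu pair, with a low-Cu difference of 0.98 after the highest mantle share was subtracted. A pair of low-density lipoprotein receptor-related genes was called higher among 53 lipid transport genes (medians 0.43 and 0.32). One of the cilia and axoneme list of 69 was called, Rootletin (OYG_10027503_10031081), from 15.7 to 57.02 RPKM in the low-Cu pair and from 28.9 to 76.8 RPKM in the high-Cu pair, and the list's medians were -0.19 and 0.30. DNA replication and cell division genes (76 tested), heme synthesis genes (9) and mucins (2) had no call.

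**Figure D5:**
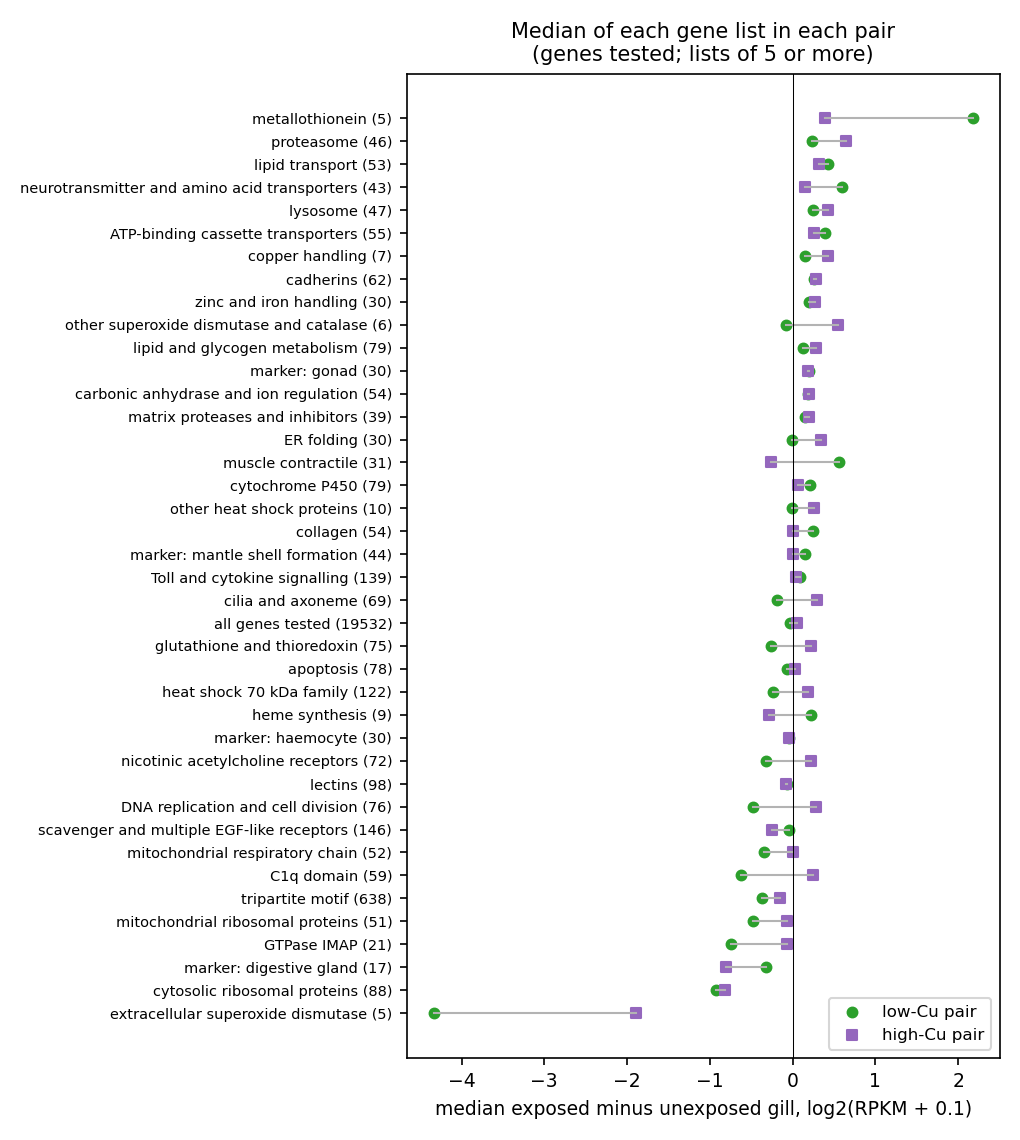
Median exposed minus unexposed difference in gill, log2(RPKM + 0.1), of each gene list with at least 5 genes tested (y axis, with the number of genes), in the low-Cu pair (green circles) and the high-Cu pair (purple squares). Extracellular superoxide dismutase (-4.33 and -1.89) and the cytosolic ribosomal proteins (-0.93 and -0.81) are the only lists below -0.5 in both pairs.

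The comparison was set beside mantle for all called genes. By the study's account the mantle pools came from the same oysters as the gill pools, so they are not an independent check. The interaction fit did not model the shared oysters. Of the 206 genes called higher in gill, 117 were higher and 18 lower in both mantle pairs, where 20.3% and 32.9% of all genes tested were higher and lower. Of the 164 called lower in gill, 116 were lower and 9 higher in both mantle pairs. At least 2-fold in both mantle pairs, 33 of the higher genes were higher and 29 of the lower genes lower. The interaction was read for the 55 genes with the largest relative or absolute differences and of the copper, metallothionein and oxygen-radical lists. It had an unadjusted p under 0.05 for 26, and no gene passed after adjustment over all genes tested (adjusted p of 0.304 to 0.992), so no difference between gill and mantle was shown for any of them.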

How the data were processed

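Digital gene expression libraries were made from gill and mantle pools of 6 oysters each. The authors used tophat2 to place filtered tags on the genome of *C. gigas* (no more than 1 mismatch), counted unambiguous tags per gene, and deposited RPKM values. A dash was read as 0. Recovered gene lengths were multiples of 3 for 99.8% of genes, so they are coding lengths, and all recovered values were whole reads within 0.05. Totals were 2049651 to 2589523 reads in gill and 2015375 to 2425354 in mantle. The depth limits genes near the floor of 3 reads.

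Differences were taken on log2(RPKM + 0.1) for genes with a mean gill level of at least 1 RPKM. Per pair, Fisher's exact test on recovered reads (two-sided, Benjamini-Hochberg FDR of at most 0.001) was joined to a 2-fold limit. limma 3.58.1 (R 4.3.3, with Benjamini-Hochberg adjustment over all genes tested) fitted exposure with Cu class as a block, and the interaction with tissue over all 8 libraries. The code was also run on simulated data with equal changes in both pairs. These data differ in that respect, so the run does not measure the error of the results here. Fold intervals are exact binomial and cover counting error only.

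The genes and lists were chosen with earlier results of these data known. The rule named the 12 called genes with an informative name that had the largest smaller-of-the-pairs difference in each direction, the 6 largest gains and losses in RPKM, every extracellular superoxide dismutase, metallothionein, catalase and copper handling gene tested, and, in each other list, the most abundant member and the most changed called members. Further genes were named after their values had been seen, mostly from the 30 called higher genes that stayed at least 2-fold higher after subtraction of the highest mantle share. Alternatives covered the pseudocount, the filter, the thresholds, scaling, the block, the fit and each pair or library left out. No genome of the build used was at hand, so no coordinates or sequences are given.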

Additional observations from a re-analysis of the deposited data

Results flagged for a closer look

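The low-Cu and high-Cu gill pairs differed in direction for 27 genes, each at least 2-fold and past the Fisher FDR in both pairs. Beyond counting error this difference was not tested, since a pair is 1 library against 1. Complement C1q-like protein 4 (OYG_10004133_10039366), of a family of recognition proteins, went from 55.1 to 0 RPKM in the low-Cu pair and from 20.8 to 246 in the high-Cu pair. Ficolin-2 (OYG_10022212_10010455), named for a lectin, went the other way, from 0.903 to 52.7 RPKM and from 80.3 to 0. GTPase IMAP family member 1 (OYG_10014807_10034271) had 18 reads in unexposed low-Cu gill, 25 in exposed high-Cu gill and 0 in both others. Hemicentin-1, partial (OYG_10025773_10005223) went from 18.8 to 232 RPKM in the low-Cu pair and from 31.0 to 15.0 in the high-Cu pair. The most abundant of the 27 was a hypothetical protein (OYG_10002011_10031608), at 2193 RPKM in G1-L, 219.8 in G2-L, 0 in G1-H and 1008 in G2-H. These genes were chosen after their values had been seen.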

How the results depend on the processing

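By size alone, 1675 genes differed the same way in both pairs by 2-fold or more. It was 829 with a mean of at least 5 RPKM, 412 at a log2 limit of 2, and 4547 to 6161 with 1 pair left out (4547 without the low-Cu pair, 6161 without the high-Cu pair). With the median mantle share subtracted from each exposed gill library it was 1668, of which 642 were higher and 1026 lower, and with the highest share 1987 (486 higher, 1501 lower), so the share of higher genes moved from 44.1% to 38.5% and 24.5%. A fall is forced by the operation, since only exposed libraries were reduced. In G2-L the highest share, 33.3%, is that of 1 gene, and the upper quartile of the set was 7.79%. The 370 genes of the Fisher rule became 86 at a log2 limit of 2, 602 at an FDR of 0.05, and 971 to 1984 with 1 pair left out (971 without the low-Cu pair, 1984 without the high-Cu pair). They were 351 (187 higher, 164 lower) and 314 (149 higher, 165 lower) after the subtractions, which were added after the data had been seen. The limma count of 0 became 380 in voom and 16 in the fit to all 8 libraries, and stayed at 0 in the other fits run, those without 1 library included. For the 55 genes named by size or from the copper, metallothionein and oxygen-radical lists, 165 values under 2 other pseudocounts and median centring held 6 outside the counting interval of the value given and none of the other sign. Under subtraction of the median mantle share, 9 of the 55 fell to 0 or below in the low-Cu pair and 0 in the high-Cu pair, and under that of the highest share 13 and 10. Genes of the mantle-restricted set among them were bound to fall under the highest share. The pairs follow the Cu class, which was the block of the limma fit. Each condition has 1 library, so no replicate numbers are shared.

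With 1 pool per condition, the spread between oysters is unknown, and exposure cannot be told apart from tank keeping. Genes with few reads have wide counting intervals, and G2-L, the exposed library with most mantle-restricted reads, enters every low-Cu difference.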
